A study of Mus musculus with 4 samples.

Results

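Axon-glia adhesion molecules are cell surface and secreted proteins through which Schwann cells hold on to axons. The 9 genes followed here by name were Cadm1, Cadm2, Cadm3, Cadm4, Ncam1, L1cam, Chl1, Lsamp and Lgi4. Each symbol matched 1 row among the 32285 genes of the matrices. All 9 had UMIs (unique molecular identifiers, which count captured RNA molecules) in each of the 4 libraries. The members were picked out by symbol, with no measured value in the rule, but the list was chosen with earlier results of these data known.

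Cells were taken from 2 hindlimb muscles, gastrocnemius and tibialis anterior, of 2-month-old male mice. Both groups carried S100GFPtg, a reporter with GFP under the S100B promoter, and GFP therefore marks Schwann cells but also other cells that use this promoter. One pool of 4 mice had no Sod1 mutation (S100GFPtg, called WT) and the other had lost both Sod1 copies (S100GFPtg Sod1-/-, called Sod1KO), a deletion carried in all cells of the animal. Each pool was sorted by fluorescence into GFP+ and GFP- cells, and each fraction gave 1 droplet library, so no group has a replicate.

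The 4 libraries held between 2052 and 7267 barcodes with medians of 6152.5 to 13825.5 UMIs, and 1638 to 5143 cells per GFP- library and 4557 to 5925 per GFP+ library were used after filtering. Between 1 and 13 barcodes were shared by any pair of libraries. The targeted gene, Sod1, was at 91.0 and 98.1 CPM (UMIs per 1e+06 UMIs) in WT GFP+ and Sod1KO GFP+, and at 124 and 113 in the GFP- pair. Reads at the 3' end can remain after a deletion elsewhere in a gene, so these UMIs do not check the genotype. Directions below are those of the libraries as labelled.

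Cell adhesion molecules of the CADM family (also called nectin-like or SynCAM proteins) bind each other across the gap between the axon and the Schwann cell. Along myelinated segments, CADM4 on the glial side is known to meet CADM3 and CADM2 on the axon. L1CAM, CHL1 and NCAM1 are immunoglobulin adhesion molecules that nonmyelinating Schwann cells keep on their surface, LSAMP is a lipid-anchored protein of the IgLON family, and LGI4 is a protein secreted by Schwann cells that acts on receptors of the ADAM family and is needed for timely myelination.

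Clusters were named from marker lists. Myelinating Schwann cell-like (mSC-like) cells had all 10 myelin markers and all 5 general Schwann markers above 20 CPM in both GFP+ libraries. Nonmyelinating cells, here called terminal Schwann cell-like (tSC-like), had 5 of 5 general markers in both libraries, 6 of the 8 tSC markers in WT and 7 of 8 in Sod1KO. WT GFP+ held 1077 mSC-like and 380 tSC-like cells, and Sod1KO GFP+ held 658 and 885. The GFP- libraries held 4 and 3 mSC-like cells and 0 and 7 tSC-like cells, too few for a level. The 9 members were left out of the genes that built the clusters, but other genes of the same cells built them, so differences between clusters are a description and not a test.

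On build GRCm38.p6, whose gene table was matched by symbol, the CADM genes lie on 4 chromosomes. Cadm1 (ENSMUSG00000032076) spans chromosome 9 from 47530170 to 47862280, Cadm2 (ENSMUSG00000064115) chromosome 16 from 66655416 to 67620917, Cadm3 (ENSMUSG00000005338) chromosome 1 from 173331892 to 173368139 and Cadm4 (ENSMUSG00000054793) chromosome 7 from 24482023 to 24504533. Ncam1 (ENSMUSG00000039542) lies on chromosome 9 from 49502129 to 49799393, L1cam (ENSMUSG00000031391) on chromosome X from 73853778 to 73880838 and Chl1 (ENSMUSG00000030077) on chromosome 6 from 103510584 to 103733038. Lsamp (ENSMUSG00000061080) lies on chromosome 16 from 39984254 to 42181679 and Lgi4 (ENSMUSG00000036560) on chromosome 7 from 31058909 to 31070935. UMIs come from the 3' end of each transcript and from genes of unequal length, so levels are compared between cells and not between genes.

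Promoter sequence is shown for 4 members that stand for the patterns found, namely Cadm3 (high in mSC-like cells), Cadm4 (present in both Schwann classes), and Chl1 and Lsamp (far higher in tSC-like than in mSC-like cells). The RefSeq table on build GRCm38.p6 gave windows for 6 of the 9 members. Each sequence is the 250 bases before a start listed in that table, read on the strand of the gene, with motif matches in capitals. These starts can differ from the gene limits given above. The Cadm3 and Chl1 windows lie inside those spans, the Lsamp window lies partly inside, and the Cadm4 window lies just before. The windows are chr1:173367696-173367945 on the minus strand for Cadm3, chr7:24481773-24482022 on the plus strand for Cadm4, chr6:103510626-103510875 on the plus strand for Chl1, and chr16:39984114-39984363 on the plus strand for the first of 2 listed starts of Lsamp.
Cadm3: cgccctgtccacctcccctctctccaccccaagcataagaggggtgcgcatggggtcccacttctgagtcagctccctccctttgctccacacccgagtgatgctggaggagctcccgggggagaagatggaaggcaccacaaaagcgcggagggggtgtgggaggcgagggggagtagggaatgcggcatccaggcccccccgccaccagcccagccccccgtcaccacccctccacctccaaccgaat
Cadm4: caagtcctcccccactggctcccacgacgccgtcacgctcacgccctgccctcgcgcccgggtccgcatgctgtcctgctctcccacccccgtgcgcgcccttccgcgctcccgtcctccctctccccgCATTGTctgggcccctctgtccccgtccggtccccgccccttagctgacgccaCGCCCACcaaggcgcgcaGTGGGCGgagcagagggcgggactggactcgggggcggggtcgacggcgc
Chl1: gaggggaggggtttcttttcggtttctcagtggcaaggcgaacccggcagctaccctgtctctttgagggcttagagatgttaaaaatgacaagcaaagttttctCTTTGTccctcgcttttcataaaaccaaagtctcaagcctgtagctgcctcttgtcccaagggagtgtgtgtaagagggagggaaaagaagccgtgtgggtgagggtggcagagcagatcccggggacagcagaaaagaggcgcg
Lsamp: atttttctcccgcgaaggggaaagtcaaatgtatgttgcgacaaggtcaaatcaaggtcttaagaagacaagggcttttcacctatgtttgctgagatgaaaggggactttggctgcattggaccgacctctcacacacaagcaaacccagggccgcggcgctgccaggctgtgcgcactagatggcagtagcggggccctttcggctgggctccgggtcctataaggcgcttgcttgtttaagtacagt

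The letters searched on both strands were ACAAAG and ACAATG, the core read by SOX factors such as SOX10, and GTGGGCG, part of the core read by EGR factors such as EGR2. The Cadm4 window held GTGGGCG 2 times, between bases 68 and 62 and between bases 50 and 44 before the start, and ACAATG 1 time between bases 121 and 116. The Chl1 window held ACAAAG 1 time between bases 145 and 140. The windows of Cadm2, Cadm3, L1cam and Lsamp held none of the 3. Of 32817 windows of the same length, 16.5% held ACAAAG, 10.7% held ACAATG and 7.02% held GTGGGCG, so a match in a single window is common and says nothing of binding.

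Between the Schwann classes, the members split into 1 gene that was higher in mSC-like cells, Cadm3, and 8 that were higher in tSC-like cells. In WT GFP+, 1 of 9 members was at least 2-fold higher in mSC-like cells, where 12.1% of all 13032 genes tested were, and 8 were at least 2-fold lower, against 21.2% of all genes. In Sod1KO GFP+, 1 was higher (9.98% of 13386 genes) and 7 were lower (20.7%), while Cadm4 stayed inside 2-fold. The median log2 ratio of mSC-like over tSC-like cells over the members was −3.89 in WT and −3.29 in Sod1KO, beside −0.17 and −0.24 over all genes tested. Ratios are of CPM from summed UMIs, and their 95% intervals cover counting error only.

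**Figure D1:**
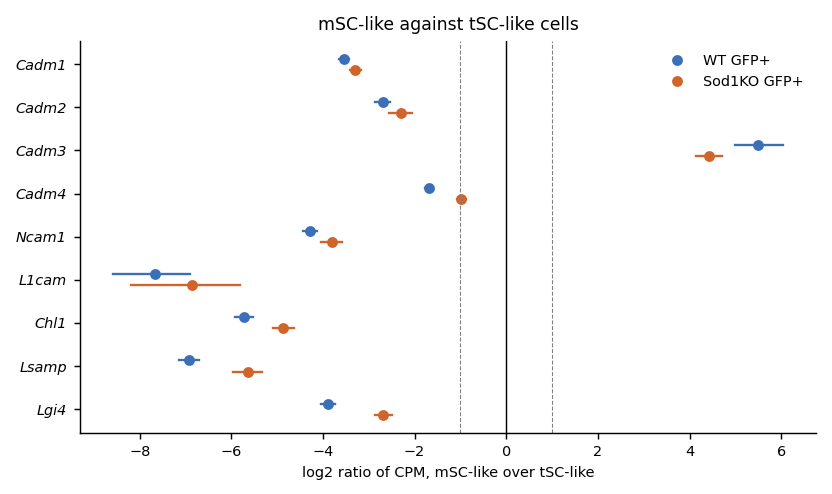
Log2 ratio of CPM in mSC-like over tSC-like cells for each member, in WT GFP+ (blue) and Sod1KO GFP+ (orange), with 95% counting intervals as lines and the 2-fold limits dashed. Cadm3 alone lies to the right, at 5.49 and 4.42, and Cadm4 lies nearest to 0 among the other 8, at −1.68 and −0.98.

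Among the CADM genes, Cadm3 was at 241 CPM in mSC-like cells and 5.38 in tSC-like cells of WT GFP+, and at 217 and 10.1 in Sod1KO GFP+. The log2 ratios were 5.49 (4.98 to 6.04) and 4.42 (4.13 to 4.72). Both mSC-like values lay above both tSC-like values. After each cell was thinned to 1000 UMIs, 19.3% (17.0 to 21.8) of mSC-like cells in WT had a Cadm3 UMI. Of the 379 tSC-like cells of WT, 0 did, with an interval of 0% to 0.969% at that depth. The floor of 3 cells, used for a count of 0, is 0.792%. In endothelial-like cells the thinned shares were 0.328% and 1.66% in the GFP+ libraries. Unthinned shares of Cadm3 in WT were 70.8% of mSC-like, 5.26% of tSC-like and 11.1% of endothelial-like cells at median depths of 6238, 12098.5 and 11432 UMIs, so the tSC-like share was below that of endothelial-like cells.

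Cadm4, the glial partner in the internodal CADM pair, was present in both Schwann classes. Its level was 216 CPM in mSC-like cells and 693 in tSC-like ones in WT, and 215 and 423 in Sod1KO, with log2 ratios of −1.68 (−1.77 to −1.60) and −0.98 (−1.08 to −0.88). The mSC-like values of the libraries lay within counting error of each other and the tSC-like values did not. Of the other named classes with at least 50 cells in a GFP+ library, satellite-like cells had the most Cadm4, at 29.8 CPM from 19 UMIs. Unnamed clusters 9, 17 and 29 had more, with 69.4 and 73.3 CPM in cluster 17 resting on 19 and 25 UMIs.

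Cadm1, which many adhesive cell types use, was at 114 CPM in mSC-like cells and 1332 in tSC-like cells in WT, and at 143 and 1408 in Sod1KO. The log2 ratios were −3.54 (−3.65 to −3.44) and −3.29 (−3.41 to −3.18). Cadm2 was at 49.0 and 317 CPM in WT and at 33.3 and 165 in Sod1KO, with log2 ratios of −2.70 (−2.86 to −2.53) and −2.30 (−2.56 to −2.06). The 2 libraries overlapped for neither gene between classes. The Cadm2 UMIs were uneven: unthinned, 65.3% of tSC-like cells in WT and 31.2% in Sod1KO had any, whereas 98.7% and 99.5% had a Cadm1 UMI.

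The widest differences among the 8 were those of the L1 and IgLON members. L1cam, on which ensheathment of small axons depends, had 13 UMIs in all mSC-like cells of WT and 7 in those of Sod1KO (1.83 and 1.59 CPM), against 372 and 185 CPM in tSC-like cells. Log2 ratios were −7.67 (−8.58 to −6.90) and −6.87 (−8.19 to −5.82). After thinning, 0.186% of mSC-like cells in WT had an L1cam UMI, and 26.6% of tSC-like cells did. The mSC-like level of WT, with an interval of 0.972 to 3.12 CPM, was below the 12.5 CPM of endothelial-like cells and overlapped the 0.770 CPM (0.431 to 1.27) of tenocyte-like cells in the same library. Endothelial-like cells held as much L1cam in the GFP- libraries, at 11.1 and 9.67 CPM. Lsamp was at 23.9 and 2894 CPM in the mSC-like and tSC-like cells of WT and at 19.3 and 965 in Sod1KO, with log2 ratios of −6.92 (−7.15 to −6.70) and −5.65 (−5.97 to −5.34). Its few mSC-like UMIs were concentrated, since 6 of 658 mSC-like cells of Sod1KO held 50% of them.

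Chl1, the close homolog of L1, was at 28.4 CPM in mSC-like cells and 1498 in tSC-like cells of WT, and at 35.6 and 1038 in Sod1KO. The log2 ratios were −5.72 (−5.93 to −5.52) and −4.87 (−5.10 to −4.64). Ncam1, a classical marker of nonmyelinating Schwann cells, was at 54.5 and 1056 CPM in WT and at 37.8 and 530 in Sod1KO, with ratios of −4.28 (−4.43 to −4.13) and −3.81 (−4.04 to −3.59). Lgi4 was at 57.8 and 856 CPM in WT and at 55.7 and 358 in Sod1KO, with ratios of −3.89 (−4.04 to −3.74) and −2.68 (−2.88 to −2.50). Unthinned, 29.1% of mSC-like cells in WT and 29.2% in Sod1KO had an Lgi4 UMI, against 2.30% and 1.32% of endothelial-like cells, at median depths of 6238 and 6118 UMIs in mSC-like and 11432 and 11404.5 in endothelial-like cells.

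Known partners from lists of 52 genes split in the same contrast. In WT, 13 of the 41 partner genes tested were at least 2-fold higher in mSC-like cells and 22 at least 2-fold lower, beside 12.1% and 21.2% of all genes. In Sod1KO 9 of 41 were higher and 16 lower, beside 9.98% and 20.7%. Gldn, a secreted ligand that gathers nodal proteins, was at 507 CPM in mSC-like cells and 3.20 in tSC-like cells of WT (log2 ratio 7.31). In the same cells Nfasc was at 277 and 2.19 (6.98), Nrcam at 259 and 51.1 (2.34) and Ank2, a scaffold below L1 proteins, at 123 and 41.0 (1.58). All 6 genes tested of the L1 family and contactin list were at least 2-fold higher in mSC-like cells in WT. Of these, Cntnap1 rested on 16 and 6 UMIs, at 1.15 with an interval (−0.27 to 2.80) that includes 0. In Sod1KO these were 3 of 6 (Gldn, Nfasc and Nrcam), while Ank2 was at 0.86, Ank3 at 0.17 and Cntnap1, from 21 UMIs, at −0.79. L1cam and Chl1 thus had the opposite direction to the other L1 family members Nfasc and Nrcam in both libraries.

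Of the scaffolds that bind CADM proteins, 2 of 10 tested were at least 2-fold higher in mSC-like cells in both libraries. Over all genes the shares were 12.1% in WT and 9.98% in Sod1KO. The 2 were Epb41l2 (327 against 50.3 CPM in WT, log2 ratio 2.70) and Mpp6 (414 against 87.3, 2.25). Mpp1 and Mpp2 were lower, at −3.87 and −4.63 from 145 and 65 UMIs. In total 6 of the 10 were at least 2-fold lower in WT and 4 in Sod1KO, beside 21.2% and 20.7% of all genes. Among other Schwann adhesion genes, the periaxonal Mag had a ratio of 6.49 and the laminin receptor subunit Itga7 3.58 in WT, while the cadherins Cdh2 and Cdh19 were lower at −3.97 and −3.12.

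The remaining IgLON genes had the same direction as Lsamp. Ntm had a log2 ratio of −7.00, Negr1 −4.56 and Opcml −3.94 in WT, and Iglon5, tested in Sod1KO only, had −4.22. Ncam2, the second NCAM gene, was at 30.7 CPM in mSC-like cells and 553 in tSC-like cells of WT (−4.17), and St8sia2, a polysialyltransferase that modifies NCAM1, at 0.842 and 69.1 (−6.36). Of the receptors of LGI proteins, Adam23 was at 70.5 and 769 CPM (−3.45), Adam11 at 1.12 and 69.6 (−5.95) and Adam22, the best known receptor of LGI4, at 4.91 and 13.1 (−1.42). In Sod1KO Adam22 was at 5.21 and 6.82 CPM (−0.39, −1.13 to 0.30), with an interval that includes 0. Of 5 genes tested in the nectin list, 3 were at least 2-fold lower in WT, beside 21.2% of all genes. These were Pvr at −1.71, Afdn, the cytoplasmic anchor of nectins, at −1.63 and Nectin3 at −1.05. In Sod1KO only Pvr was, at −1.15, beside 20.7% of all genes.

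Across all cell classes of the GFP+ libraries, tSC-like cells had the highest CPM of 8 members and mSC-like cells that of Cadm3. In WT, tSC-like cells held 92.8% of the Chl1 UMIs of the cells used, 89.7% of those of L1cam and 88.3% of those of Lsamp. Their share was 79.6% for Lgi4, 69.4% for Cadm1 and Cadm2, 63.0% for Cadm4 and 56.8% for Ncam1. These shares depend on the sort and on how many cells of each class a library holds.

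**Figure D2:**
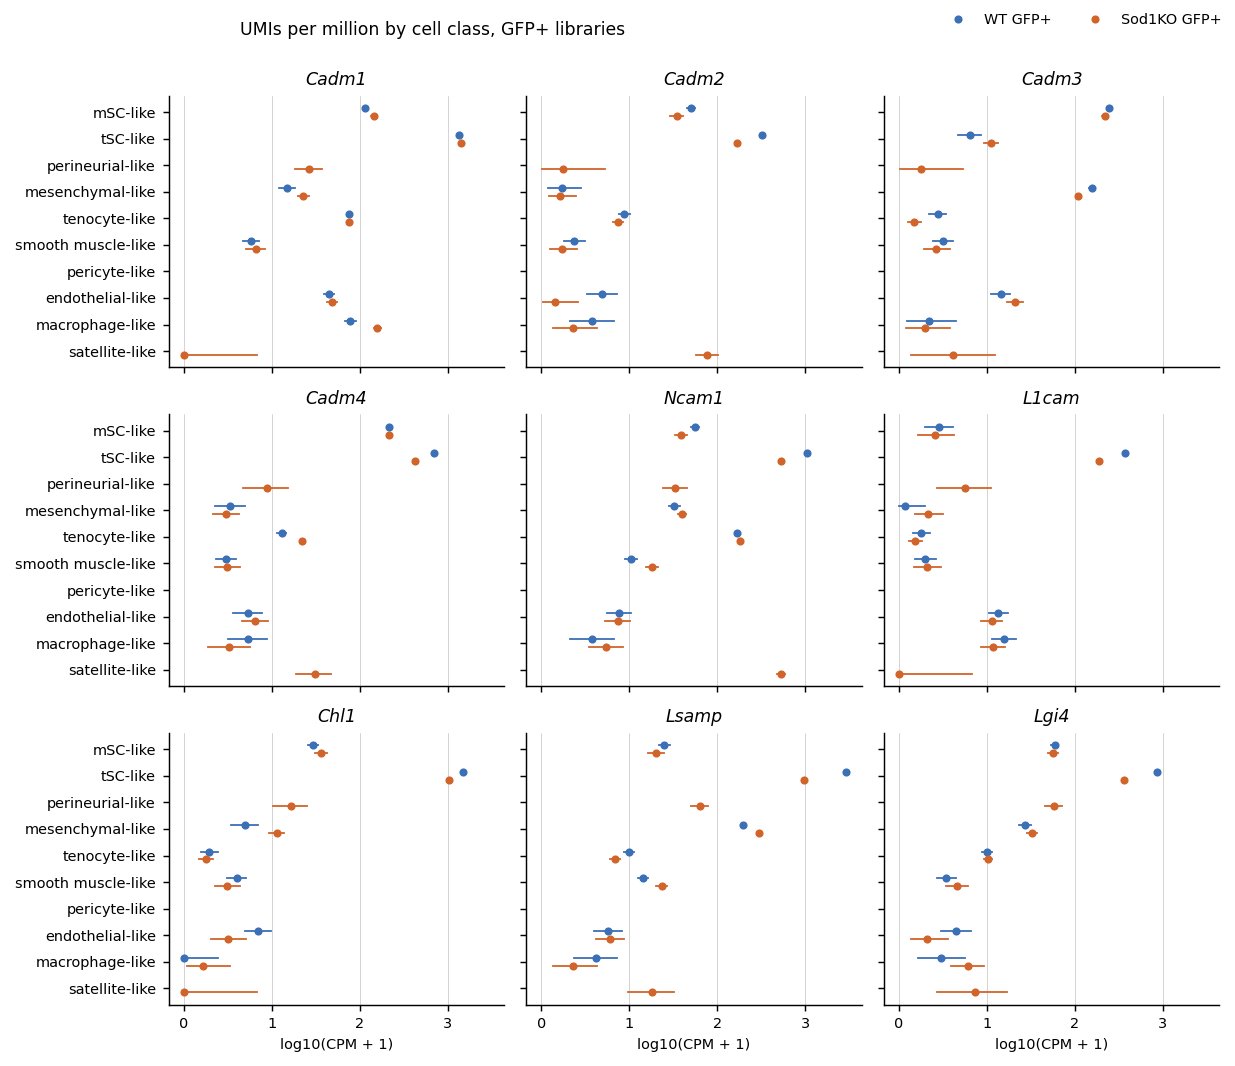
CPM of each member by cell class on a log10(CPM + 1) axis in WT GFP+ (blue) and Sod1KO GFP+ (orange), with 95% counting intervals as lines. Only classes with at least 50 cells in the library are drawn. In 8 panels the tSC-like points are the farthest to the right, and in the Cadm3 panel the mSC-like points are, followed by mesenchymal-like cells.

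Some members were also found in classes other than Schwann-like cells. Cadm3 in mesenchymal-like cells was at 154 CPM in WT GFP+, 109 in Sod1KO GFP+ and 132 in Sod1KO GFP-. Within that class it was highest in cluster 22, the Pi16 cells, at 311, 281 and 349 CPM in the same 3 libraries. Cluster 6, led by Myoc and Fst, had 97.3 and 89.1 CPM in the GFP+ libraries. Cadm3 in cluster 22 thus lay above its level in mSC-like cells of the same library in both GFP+ libraries. Lsamp showed the other order in these clusters, at 378 and 511 CPM in cluster 6 and at 62.6 and 41.7 in cluster 22 of WT GFP+ and Sod1KO GFP+.

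Ncam1 was also present in muscle stem cells and tendon cells. Satellite-like cells had 529 CPM (474 to 589) in Sod1KO GFP+, which did not differ beyond counting error from the 530 CPM of tSC-like cells there. The 38 satellite-like cells of WT GFP+ held 238 Ncam1 UMIs. Tenocyte-like cells had 167 and 181 CPM in the GFP+ libraries and 207 in Sod1KO GFP-. Because they were numerous and deep, tenocyte-like cells held 29.5% of all Ncam1 UMIs of WT GFP+ and 40.6% of those of Sod1KO GFP+, so Ncam1 in a whole sorted fraction is not a measure of Schwann cells.

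Cadm1 had a low but widespread level outside Schwann cells. It was at 73.3 CPM in tenocyte-like cells of both GFP+ libraries and between 44.0 and 60.7 CPM in endothelial-like cells of all 4 libraries. Macrophage-like cells had 77.1 CPM in WT GFP+ and 158 in Sod1KO GFP+ (log2 ratio 1.03, 0.79 to 1.28), but 6 of 132 cells in WT and 14 of 212 in Sod1KO held 50% of these UMIs. The difference therefore rests on few cells, and its basis was not tested.

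Unnamed clusters of the GFP+ libraries also carried members. Cluster 29 had the cell cycle genes Top2a and Mki67 among its leading genes. Its 51 cells of Sod1KO GFP+ had 739 CPM of Cadm1, 672 of Chl1, 480 of Ncam1, 457 of Lsamp and 1.66 of Cadm3. Cadm3 was thus low in these 51 cells as in tSC-like cells. The 69 cells of Sod1KO GFP- in the same cluster had 30.3 CPM of Cadm1 and 0 UMIs of Chl1. The levels of the GFP+ cells therefore do not hold for the whole cluster. Cluster 9 carried all 10 myelin markers and all 6 perineurial markers together and numbered 309 cells (WT GFP+) and 312 (Sod1KO GFP+). In it, Cadm1 was at 73.2 and 331 CPM (log2 ratio 2.18, 2.03 to 2.33), L1cam at 5.64 and 34.02 (2.59, 2.07 to 3.15), Chl1 at 34.3 and 125 (1.86, 1.64 to 2.08) and Cadm3 at 93.1 and 38.4 (−1.28, −1.49 to −1.07). Summed tSC markers in the same cells were 247 and 355 CPM and summed myelin markers 17665 and 8954 CPM, and their part in these differences was not tested. With the stricter cell filter, a cluster with myelin and perineurial markers together held 275 cells of WT GFP+ and 154 of Sod1KO GFP+. Another, with Ngfr, Btc and perineurial markers, held 12 and 239. How these clusters overlap cluster 9 was not tested.

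Genotype was compared first in mSC-like cells. None of the 9 members differed by 2-fold between Sod1KO GFP+ and WT GFP+, where 1.75% of 12089 genes were at least 2-fold higher in Sod1KO and 2.2% lower. The log2 ratios ran from −0.56 for Cadm2 (−0.84 to −0.27) and −0.53 for Ncam1 (−0.80 to −0.26) to 0.33 for Cadm1 (0.17 to 0.48) and Chl1 (0.02 to 0.63). Cadm4 was at −0.01 (−0.13 to 0.11), Lgi4 at −0.05 (−0.29 to 0.18) and Cadm3 at −0.16 (−0.27 to −0.04). The median over the members was −0.16, beside −0.03 over all genes tested.

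In tSC-like cells, 3 members were at least 2-fold lower in Sod1KO and none was 2-fold higher, where 5.9% of 13604 genes were lower and 5.79% higher. Lsamp was at 2894 CPM in WT and 965 in Sod1KO (log2 ratio −1.58, −1.62 to −1.55), Lgi4 at 856 and 358 (−1.26, −1.32 to −1.20) and L1cam at 372 and 185 (−1.01, −1.09 to −0.92). Close to the limit, Ncam1 was at −0.99 (−1.04 to −0.94) and Cadm2 at −0.95 (−1.04 to −0.85). Cadm4 and Chl1 were lower by less, at −0.71 (−0.77 to −0.65) and −0.53 (−0.57 to −0.49). Cadm1, at 1332 and 1408 CPM, differed by only 0.08 (0.04 to 0.12), and Cadm3 was at 0.91 (0.33 to 1.53) from 32 and 110 UMIs. The median over the members was −0.95, beside −0.03 over all genes tested.

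Different clusters made up most of the class in each library. Cluster 15, led by Bche, held 278 of the WT and 132 of the Sod1KO cells, and cluster 8, led by Btc, held 89 and 665. The log2 ratio of Lsamp was −0.28 (−0.32 to −0.23) within cluster 15 and −0.06 (−0.20 to 0.09) within cluster 8. Neither of these 2 clusters held its 2-fold difference in the whole class. In cluster 31, also tSC-like, Lsamp was at 6805 CPM in 13 WT cells (323 UMIs) and 932 in 88 Sod1KO cells. Subcluster 2, described below, also held a wider Lsamp difference than clusters 15 and 8. L1cam was at −0.61 (−0.75 to −0.47) and −1.01 (−1.20 to −0.81) in clusters 15 and 8, and Lgi4 at −0.20 (−0.28 to −0.12) and −0.88 (−1.04 to −0.71). Cadm2 was at −0.62 (−0.83 to −0.42) and −2.84 (−2.97 to −2.71). Cadm3 turned its direction in cluster 8, at −1.57 (−2.20 to −0.90) from 27 UMIs in WT and 100 in Sod1KO, and had 5 UMIs in each library in cluster 15. In WT, most Cadm3 UMIs of the class lay in the 26 cells of subcluster 9, described below, where Cadm2 was also high. The part of these cells in the cluster 8 ratios was not tested.

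The share of tSC-like cells with a UMI was in the order of the levels for Lsamp. After thinning to 1000 UMIs, 73.4% (68.6 to 77.7) of tSC-like cells in WT and 32.0% (29.0 to 35.2) in Sod1KO had an Lsamp UMI, while endothelial-like cells had 0.328% and 0%. For Cadm1 the shares were 69.4% (64.5 to 74.0) and 71.3% (68.2 to 74.3). The unthinned shares were 85.8% and 56.5% for Lsamp and 98.7% and 99.5% for Cadm1, at median depths of 12098.5 and 9524 UMIs. Lyz2, a macrophage marker, moved in the same direction as Lsamp: the macrophage list summed to 4693 CPM in tSC-like cells of WT and 433 in Sod1KO, with 1 of its 6 genes above 20 CPM, and its part in the result was not tested.

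**Figure D3:**
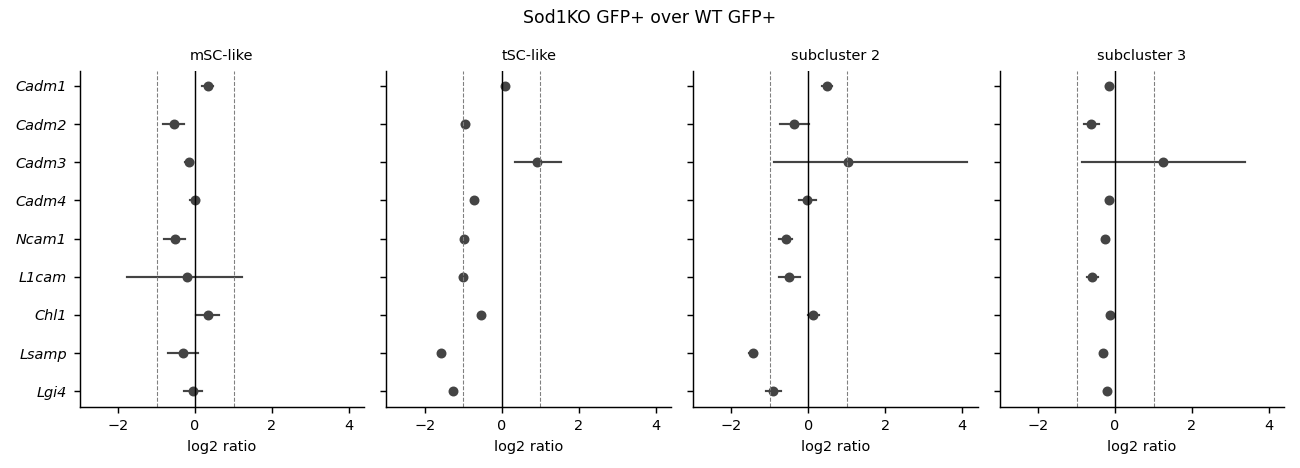
Log2 ratio of CPM in Sod1KO GFP+ over WT GFP+ for each member, in mSC-like cells, in tSC-like cells and within subclusters 2 and 3 of the Schwann-like cells, with 95% counting intervals as lines and the 2-fold limits dashed. Most points of the tSC-like panel lie to the left of 0, whereas in subcluster 3 those of all members but Cadm3 lie between −0.62 and −0.12.

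The tSC-like cells of the 2 libraries were not made of the same subclusters. When the Schwann-like GFP+ cells were clustered again without the members, subcluster 3, with Lyz2, Bche and Ajap1 among its leading genes, held 302 cells of WT and 151 of Sod1KO. Subcluster 2 held 40 and 544. Although 99.7% of its cells came from tSC-like clusters, its 10 leading genes included hemoglobin (Hbb-bs, Hba-a2), endothelial (Flt1, Gpihbp1) and pericyte (Rgs5, Kcnj8) genes and no tSC marker, so it is called by its number. Subcluster 9, led by Scn7a and Gfra3, held 26 and 33, and subcluster 6, led by Olig1, Ngfr and Btc among others, held 0 and 74. Subcluster 5, made of shallow cells with a median of 4594.5 UMIs, held 13 and 83. Subclusters found almost wholly in a single library may reflect that library, and genotype and mouse pool cannot be told apart.

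Within subcluster 3, 8 members were lower in Sod1KO than in WT, none by 2-fold. Lsamp was at 3086 CPM in WT and 2491 in Sod1KO (log2 ratio −0.31, −0.35 to −0.26), Lgi4 at 909 and 783 (−0.22, −0.30 to −0.14) and L1cam at 380 and 252 (−0.59, −0.73 to −0.46). Ncam1 was at −0.25, Cadm2 at −0.62, Cadm4 and Cadm1 both at −0.16 and Chl1 at −0.12. L1cam and Cadm2 had the largest ratios, against −1.01 and −0.95 in the whole tSC-like class. The erythroid list summed to 13.9 CPM in WT and 4030 in Sod1KO there and the macrophage list (Lyz2) to 5188 and 1886, and their part was not tested.

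In subcluster 2, Lsamp was at 1760 CPM in the 40 WT cells and 650 in the 544 Sod1KO cells (−1.44, −1.54 to −1.33), Lgi4 at 499 and 264 (−0.92, −1.11 to −0.72), Ncam1 at 691 and 458 (−0.59, −0.76 to −0.43) and L1cam at 242 and 171 (−0.50, −0.77 to −0.22). Cadm1 went the other way, at 983 and 1374 CPM (0.48, 0.35 to 0.62), and Cadm2, Cadm3, Cadm4 and Chl1 had intervals that include 0. The 40 WT cells held all 8 endothelial markers above 20 CPM, summing to 1148 CPM against 73.0 in Sod1KO. In the same cells the macrophage list (Lyz2) summed to 1925 CPM in WT and 78.2 in Sod1KO, the pericyte list to 516 and 115 and the erythroid list to 20.1 and 1238, and the part of these in the ratios was not tested.

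**Figure D4:**
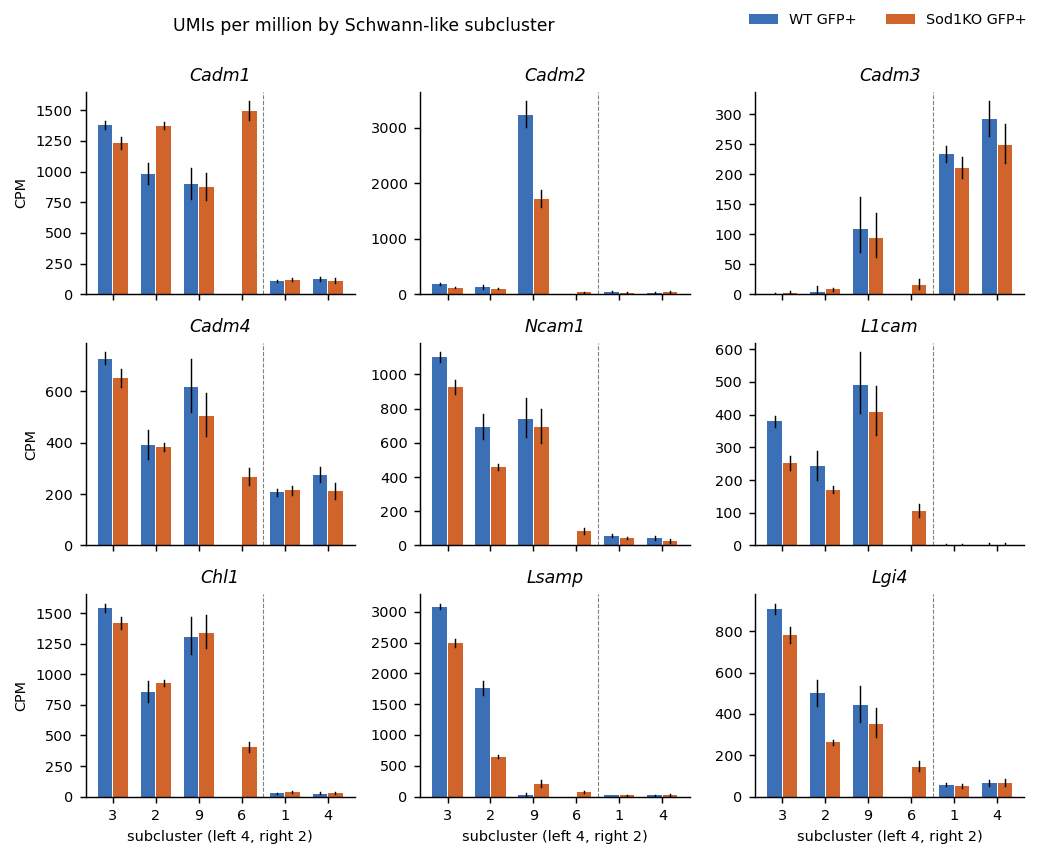
CPM of each member in 4 subclusters of cells from tSC-like clusters (3, 2, 9 and 6) and the 2 largest from mSC-like clusters (1 and 4), in WT GFP+ (blue) and Sod1KO GFP+ (orange), with 95% counting intervals as black lines. A dashed line parts the left 4 from the right 2. Bars are drawn from 20 cells on, and subcluster 6 has no WT cells. Subcluster 5, also of cells from tSC-like clusters, is not drawn. Lsamp is highest in subcluster 3, Cadm2 in subcluster 9, and Cadm3 is low in subclusters 3, 2 and 6.

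These 4 subclusters carried the members at different levels. In Sod1KO, Lsamp was at 2491 CPM in subcluster 3, 650 in subcluster 2, 211 in subcluster 9 and 71.5 in subcluster 6. Ncam1 was at 925, 458, 694 and 82.9 CPM in the same order, and Lgi4 at 783, 264, 352 and 145. Cadm1 did not follow this order, at 1233, 1374, 874 and 1497 CPM. Among these 4, subcluster 6 thus had the lowest level of Lsamp, Ncam1, Lgi4, L1cam (105.8 CPM), Chl1 (405), Cadm2 (34.3) and Cadm4 (267). It had the highest of Cadm1, with no WT cells to compare. Subcluster 5, with 83 cells of Sod1KO, is not among the 4. In the tSC-like cluster 31, 88 cells of Sod1KO had Cadm1 at 2851 CPM and Cadm4 at 227. The order of levels is therefore that of these 4 subclusters and not of all tSC-like cells.

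Subcluster 9 was the reverse of subcluster 3 for 3 members. Its Cadm2 was at 3232 CPM (3003 to 3474) in WT and 1720 (1572 to 1877) in Sod1KO, against 187 and 122 in subcluster 3. Its Lsamp was at 21.9 CPM from 5 UMIs in WT and 211 from 61 UMIs in Sod1KO. Cadm3, nearly absent from subcluster 3 at 0.964 and 2.30 CPM, was at 109 (70.9 to 162) and 93.2 (61.4 to 136) CPM in subcluster 9. Of the 32 Cadm3 UMIs in tSC-like cells of WT, 25 lay in these 26 cells. Summed myelin markers were 8868 CPM in subcluster 9 of WT and 4268 in Sod1KO, against 1678 and 1548 in subcluster 3, and their part in the Cadm3 level was not tested. L1cam, Chl1 and Ncam1 were shared by both subclusters, with L1cam at 490 and 407 CPM in subcluster 9 and 380 and 252 in subcluster 3.

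Among mSC-like cells, subclusters 1 and 4 had similar members. Cadm3 was at 234 and 211 CPM in subcluster 1 of WT and Sod1KO and at 292 and 250 in subcluster 4. Cadm4 was at 207 and 215 CPM and at 276 and 210. Subcluster 8, with Erbb4 and Nrg1 among its leading genes and a median of 4905 UMIs, had more Cadm1, at 357 CPM in its 24 WT cells and 510 in its 38 Sod1KO cells, more Cadm2, at 287 and 151, and more Cadm3, at 322 and 418, from 31 to 105 UMIs a value. In subcluster 10, with 33 cells of Sod1KO and none of WT, Cadm3 was at 108 CPM, Cadm4 at 293 and Cadm1 at 236.

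Partner genes were compared between genotypes in the same way. In tSC-like cells, of 42 tested, 8 were at least 2-fold higher in Sod1KO and 2 lower, beside 5.79% and 5.9% of all genes. Gldn was at 3.20 CPM in WT and 86.8 in Sod1KO (log2 ratio 4.76, 4.11 to 5.50), Iglon5 at 1.85 and 16.9 (3.19, 2.32 to 4.22), Itga7 at 5.55 and 20.1 (1.86, 1.32 to 2.43) and Nfasc at 2.19 and 6.73 (1.62, 0.76 to 2.60). Afdn was at 30.4 and 11.4 (−1.41, −1.75 to −1.08). In mSC-like cells 1 of 36 partner genes tested was 2-fold higher and 2 were lower, beside 1.75% and 2.2%.

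The genes most like each member were found from Pearson's r of log2(CPM + 1) over 52 sums of a class or cluster in a library, among 12248 genes. Points share libraries and differ in depth, so r is a description. Lgi4 was most like Aspa (0.93), Gpm6b (0.90) and Kif21a (0.90), and Chl1 was most like Gm12688, Kcnh8 and Kcna6 (0.93 each). For Cadm2 the leading genes were Gpr37l1, Zfp536 (0.88 each) and Igsf11 (0.86), and for Cadm4 they were Cmtm5 (0.86), Shc4 (0.85) and Gal3st1 (0.84). Ncam1 had Tenm3, Gpsm2 and Tafa5 (0.85, 0.84 and 0.84), Lsamp had Dpyd (0.83), Sfrp1 (0.82) and Has2 (0.82), and Cadm1 had P2rx7 (0.81), Arhgef26 (0.77) and Col9a3 (0.76). L1cam, with 2310002F09Rik (0.74), Arl6ip1 (0.72) and 4930469K13Rik (0.70), and Cadm3, with Pde11a and Rasgef1a (0.68 each) and Me1 (0.66), had the weakest. Among the members themselves, r was 0.83 between Chl1 and Lgi4 and 0.81 between Cadm2 and Cadm4, and at most 0.41 between Cadm3 and any other.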

How the data were processed

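The authors deposited UMI counts, 1 value for each gene in each barcode, made with Cell Ranger 7.1.0 (file headers), on mm10 by the submitters' notes, while the study's methods name another version and both GRCm39 and GRCm38. The study's methods give default settings for the counting step, and no source used here names intronic reads. Whether these were counted bears on Lsamp and Cadm2, whose genes span 2197426 and 965502 bases on GRCm38.p6. The authors removed ambient RNA and doublets only after these counts. Total UMIs per library were 21959719 to 105954116.

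Barcodes had to show over 200 genes and stay below 10% of UMIs from mitochondrial genes, and 27 to 366 likely doublets per library were removed by simulated neighbours at 0.8% per 1000 barcodes. Counts were scaled to 10000 UMIs and log-transformed, and 2000 variable genes without the members gave 30 components and Leiden clusters (leidenalg 0.10.2, scikit-learn 1.9.0, scipy 1.17.1) at resolution 1, or 0.5 for Schwann-like cells. A cluster took a name from at least 3 markers over 20 CPM and 2-fold above other clusters and at least 50% of a list. These limits were set after the clusters were seen, and names may differ from the study's.

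With 1 library per group no test was run. Ratios are of summed UMIs, with exact conditional binomial 95% intervals (Poisson for CPM, Clopper-Pearson for shares) that cover counting error only. A gene was tested with at least 20 UMIs in both groups together, and 0 UMIs were replaced by a floor of 3. Named genes were all members, up to 4 partner genes per list past 2-fold with at least 50 UMIs, and 3 genes most like each member. Members and lists were chosen with earlier results of these data known.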

Additional observations from a re-analysis of the deposited data

Results flagged for a closer look

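Chl1 and Cadm3 differed between the GFP+ libraries in opposite directions in the 2 Schwann classes, each with a counting interval that leaves out 0. The log2 ratio of Sod1KO over WT for Chl1 was 0.33 in the mSC-like class and −0.53 in the tSC-like class. Within cluster 3 of the mSC-like class the Chl1 intervals overlapped, at 23.8 to 31.7 CPM in WT and 27.4 to 38.6 in Sod1KO. In tSC-like clusters 15 and 8 Chl1 was lower in Sod1KO by less, at 1547 and 1438 CPM and at 1043 and 879 CPM. In cluster 31 it was at 3392 CPM in 13 WT cells and 2042 in 88 Sod1KO cells. For Cadm3 it was −0.16 in the former and 0.91 in the latter. Within cluster 8 of the tSC-like class, Cadm3 was instead lower in Sod1KO, at −1.57. Most Cadm3 UMIs of tSC-like cells in WT lay in subcluster 9, and the part of these cells in that ratio was not tested. In subcluster 2 the Cadm3 and Chl1 intervals included 0. With 1 library per group the difference between the classes was not tested. The lower-level class of each gene held few UMIs (202 and 157 for Chl1 in mSC-like cells and 32 and 110 for Cadm3 in tSC-like cells, WT then Sod1KO).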

How the results depend on the processing

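No paired analysis was possible because each group is 1 library, and for the same reason no replicate could be left out. In mSC-like against tSC-like cells, Cadm3 stayed at least 2-fold higher and at least 7 members at least 2-fold lower in both libraries under the alternatives run (scaling, minimum of UMIs, cell filter, doublets, ambient RNA, mean of per-cell CPM, members kept among the clustering genes, a per-cell marker rule, and, chosen after seeing the data, without the shallow clusters). Between genotypes no member passed 2-fold in mSC-like cells under any of them. In tSC-like cells the number at least 2-fold lower in Sod1KO was between 2 and 4 (L1cam, Ncam1 and Cadm2 were at −1.01, −0.99 and −0.95), and 1 member, Cadm3, was at least 2-fold higher after subtraction of 5% ambient RNA and with the stricter filter (log2 ratio 1.55 and 1.03). The per-cell marker rule turned Cadm1 in tSC-like cells from 0.08 to −0.047. Of the members' log2 ratios under the 8 settings other than the minimum of UMIs, 208 were close to the reported ones, 78 moved in size and 1 changed sign. The 7 to 13 UMIs of L1cam in mSC-like cells limit the size of its ratio, which was −11.37 in WT with ambient RNA subtracted.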
